A study of Homo sapiens with 2 samples.

Results

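The efflux pump genes ABCB1 and ABCG2 were followed cell by cell in SUM159, a human triple-negative breast cancer line. They were chosen by name, as the drug efflux transporters of the panel, and are 2 of the 373 genes that the deposited matrices list. The cells, labelled as wild type, had been made resistant to doxorubicin, a DNA-damaging anthracycline, or to paclitaxel, a microtubule stabiliser, by long exposure to rising doses, or were treatment-naïve, which the labels call untreated. Each of these states was profiled as spheroids, grown in Matrigel, and as attached cells. The 3 states were pooled under sample tags on 1 cartridge per culture, so culture and cartridge cannot be told apart. The 6 populations are doxorubicin-resistant, paclitaxel-resistant and treatment-naïve spheroids and their attached counterparts, and none was replicated. The spheroid labels call the drug states treated, while the series design calls them resistant, which is the term used here. File names gave the population of each matrix, because no label ties a tag to a file. The doxorubicin-resistant cells had recovered in drug-free medium between doses. The values describe established populations of 1 line, and how these came to differ was not tested.

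Transcripts were counted as unique molecular identifiers (UMIs), 1 for each captured molecule. The spheroid files held 3776 doxorubicin-resistant, 3751 paclitaxel-resistant and 4362 treatment-naïve cells, with medians of 2340, 1629 and 1538.5 UMIs per cell, and the attached files held 7032, 5896 and 5305 cells of the same states, with medians of 3814, 3653 and 3710 UMIs. No barcode was shared within a cartridge, and 264 barcode numbers occurred on both, 2.22% of the spheroid barcodes. All 5 carcinoma line markers (KRT8, KRT18, VIM, EGFR and CD44) were present in every population, at a summed 70991 to 159651 CPM (a gene's UMIs scaled to a common total of UMIs per population). Of 7 leukocyte markers, MS4A1 and CD68 are not listed in the files used here, and the other 5 summed to 98.8 to 707 CPM, mostly CD14. Their part in the pump values was not tested. The 95% intervals given in parentheses cover nothing but counting error, and without replicates no test could be made between populations. Those of levels and folds treat UMIs as independent and leave out the spread between cells.

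ABCB1 encodes P-glycoprotein, an ATP-driven pump of the plasma membrane that expels many bulky hydrophobic drugs, paclitaxel and doxorubicin among them. ABCG2 encodes the breast cancer resistance protein, another ATP-driven pump that works as a dimer and is known for exporting mitoxantrone and camptothecins, whereas paclitaxel is not counted among its usual substrates. Both pumps protect barrier epithelia and stem cells, and a tumour cell that carries more of either can survive doses that kill its neighbours. Which cells carry them, and whether a cell carries both, therefore bears on how resistance is spread over a population. ABCB1 lies on chromosome 7 (87503017 to 87713295, GRCh38.p14) and ABCG2 on chromosome 4 (88090264 to 88231626, GRCh38.p14), both on the minus strand. Because both pumps were higher together in the resistant cells, the 250 bases before 1 annotated start of each gene are shown 5′ to 3′ from RefSeq (GRCh38.p14, minus strand, chr7:87600885-87601134 and chr4:88158910-88159159). Capitals mark CCAAT boxes (CCAAT, either strand) and GC boxes (GGGCGG, either strand).
ABCB1: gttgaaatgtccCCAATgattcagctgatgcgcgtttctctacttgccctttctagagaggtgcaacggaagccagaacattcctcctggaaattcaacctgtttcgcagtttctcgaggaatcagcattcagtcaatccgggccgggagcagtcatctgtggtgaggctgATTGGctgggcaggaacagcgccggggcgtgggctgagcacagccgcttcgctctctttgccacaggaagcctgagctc
ABCG2: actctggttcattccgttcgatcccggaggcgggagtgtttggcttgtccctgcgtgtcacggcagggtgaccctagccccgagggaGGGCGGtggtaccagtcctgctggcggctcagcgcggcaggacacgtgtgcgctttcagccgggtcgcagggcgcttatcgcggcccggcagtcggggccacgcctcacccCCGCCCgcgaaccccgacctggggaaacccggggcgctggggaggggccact
The ABCB1 window held 2 CCAAT matches, their first bases 238 and 79 bases before the start, and no GC box, whereas the ABCG2 window held 2 GC boxes, 163 and 52 bases before the start, and no CCAAT. Neither held TATAAA. Among 35116 RefSeq windows of this length, 32.0% held a CCAAT, 42.6% a GC box and 10.7% TATAAA on either strand, so neither match is rare, and the letters are a description and not a bound site.

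ABCB1 was the pump with the larger difference between resistant and treatment-naïve cells in both cultures. In spheroids its level was 6211 CPM (6164 to 6259) in doxorubicin-resistant, 3472 CPM (3433 to 3512) in paclitaxel-resistant and 286 CPM (277 to 296) in treatment-naïve cells. In attached cells it was 7691 CPM (7659 to 7723), 4648 CPM (4621 to 4676) and 146 CPM (141 to 151) in the same states. The counting intervals of no 2 populations overlapped, though they leave out the spread between cells, which was wide for ABCB1 as described further on. All 4 resistant populations stood far above both treatment-naïve ones. ABCB1 was thus 21.7-fold higher in doxorubicin-resistant and 12.1-fold higher in paclitaxel-resistant spheroids than in treatment-naïve spheroids, and 52.6-fold and 31.8-fold higher in the corresponding attached cells. It ranked 4 from the top among the measured genes by fold in each of the 4 comparisons. The spheroid folds depended on which cells were weighed and how: they were 6.77 with doxorubicin and 3.51 with paclitaxel as averages of single-cell CPM values, and 70.6 and 37.6 in cells of at least 1000 UMIs whose other genes matched their own population best, as described further on.

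ABCG2 followed the same direction over a narrower range. Its level was 480 CPM (467 to 493) in doxorubicin-resistant, 460 CPM (446 to 475) in paclitaxel-resistant and 185 CPM (178 to 194) in treatment-naïve spheroids. In attached cells it was 1329 CPM (1316 to 1343), 920 CPM (908 to 932) and 126 CPM (121 to 131). Only the 2 resistant spheroid populations were neighbours whose intervals overlapped. The folds over treatment-naïve cells were 2.59 and 2.48 in doxorubicin- and paclitaxel-resistant spheroids, and 10.6 and 7.31 in attached cells, with ranks of 31, 16, 15 and 9 among the measured genes. Both pumps passed the size rule of a 2-fold higher level with at least 50 UMIs in all 4 comparisons. That rule was passed by 16.5% of the measured genes in doxorubicin-resistant and 9.92% in paclitaxel-resistant spheroids, and by 24.3% and 20.2% in the attached cells. The ABCG2 fold of paclitaxel-resistant spheroids rested on the scaling, since it was 1.85 in unscaled totals and 1.96 as an average of single-cell CPM values, both below the rule.

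**Figure D1:**
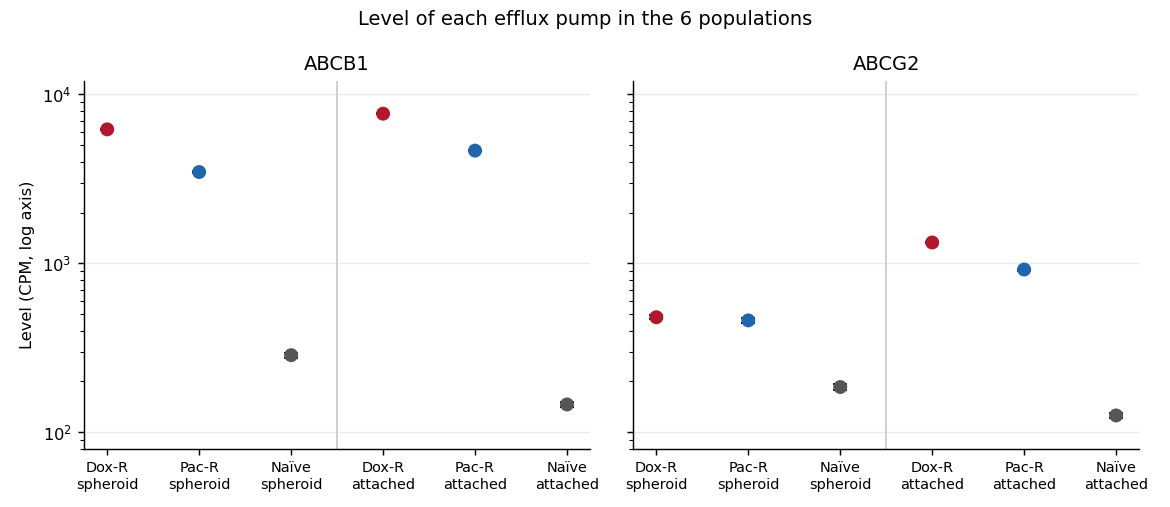
Level of ABCB1 (left) and ABCG2 (right) in CPM on a log axis, as 1 point per population with its 95% counting interval, which is smaller than most points (Dox-R and Pac-R mean doxorubicin- and paclitaxel-resistant). The resistant populations lie at 3472 to 7691 CPM for ABCB1 and 460 to 1329 CPM for ABCG2, all above the treatment-naïve ones.

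Between the drugs, ABCB1 was 1.79-fold (1.76 to 1.81) higher in doxorubicin- than in paclitaxel-resistant spheroids and 1.65-fold (1.64 to 1.67) higher in the attached cells. ABCG2 was 1.04-fold (1.00067 to 1.09) in spheroids and 1.45-fold (1.42 to 1.47) in attached cells. Neither pump reached 2-fold, which 12.7% of the measured genes did in spheroids and 13.8% in attached cells. In unscaled totals, which also carry the number of cells, the ABCB1 fold was 2.23 in spheroids and 2.08 in attached cells, past the rule.

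Between the cultures, the pumps were lower in resistant spheroids than in resistant attached cells and higher in treatment-naïve spheroids than in treatment-naïve attached cells. Each culture had its own cartridge, so a difference between cultures cannot be told apart from one between cartridges. The spheroid-to-attached ratio of ABCB1 was 0.808 (0.801 to 0.815) in doxorubicin-resistant, 0.747 (0.737 to 0.757) in paclitaxel-resistant and 1.96 (1.86 to 2.06) in treatment-naïve cells. That of ABCG2 was 0.361 (0.351 to 0.372), 0.5001 (0.483 to 0.518) and 1.47 (1.39 to 1.56). The median measured gene lay at a log2 ratio of -0.34, -0.41 and -0.33, and against it ABCB1 at -0.31 and -0.42 in the resistant cells was near the middle, ranking 130 of 268 and 129 of 255 genes from the top. ABCG2, at -1.47 and -0.9997, was below the median by more. Only the ABCG2 ratio of doxorubicin-resistant cells passed the rule for 2-fold lower, which 15.7% of genes passed there, 24.3% in paclitaxel-resistant and 24.2% in treatment-naïve cells. The direction in treatment-naïve cells depended on the processing. Their ABCB1 ratio was 5.07 as an average of single-cell CPM values, 1.60 in cells of at least 1000 UMIs, 1.03 in unscaled totals and 0.626 in cells of at least 1000 UMIs that also matched their own population best. Their ABCG2 ratio was 1.10 in the cells matched in this way and 0.778 in unscaled totals.

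The resistant populations were not uniform in ABCB1. To compare cells at 1 depth, each cell was thinned to 1000 UMIs, which left out 1218 doxorubicin-resistant, 1587 paclitaxel-resistant and 1920 treatment-naïve spheroid cells and 1 attached cell. At this depth 68.1% (66.3 to 69.9) of doxorubicin-resistant, 68.2% (66.2 to 70.2) of paclitaxel-resistant and 8.48% (7.40 to 9.65) of treatment-naïve spheroid cells had an ABCB1 UMI. In attached cells these shares were 75.3% (74.3 to 76.3), 81.1% (80.03 to 82.05) and 13.6% (12.6 to 14.5). Doxorubicin-resistant attached cells therefore had the higher mean, 7.69 UMIs against 4.68 in the paclitaxel-resistant ones, but the smaller share of cells with a UMI. The median cell of both had 3 UMIs, and the cell at the upper 10% had 19 and 11. Before thinning the shares were 67.2%, 60.1% and 18.7% in spheroids and 88.4%, 93.1% and 36.7% in attached cells. No cell type that lacks the pumps is in the data, so no share of cells with stray pump UMIs can be set beside these values.

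Cells with many ABCB1 UMIs were, at 1000 UMIs, most frequent among the doxorubicin-resistant cells of each culture. More than 5 UMIs were seen in 28.7% (26.9 to 30.5) of doxorubicin-resistant and 17.0% (15.4 to 18.6) of paclitaxel-resistant spheroid cells, against 1.23% (0.830 to 1.75) of treatment-naïve ones. In attached cells these shares were 35.9% (34.8 to 37.0), 27.4% (26.3 to 28.6) and 0.113% (0.042 to 0.246). Before thinning, attached paclitaxel-resistant cells had the larger share, 66.9% (65.675 to 68.1) against 64.5% (63.4 to 65.65) of doxorubicin-resistant ones. The spheroids kept their order, with 38.8% of doxorubicin-resistant and 27.8% of paclitaxel-resistant cells. The 10% of cells with most ABCB1 at 1000 UMIs held 55.1% and 49.9% of the ABCB1 UMIs in doxorubicin- and paclitaxel-resistant spheroids. In the attached populations they held 51.9% and 41.7%. The Fano factor, the variance over the mean, which is 1 for random counting, was 25.7, 9.75 and 18.4 in doxorubicin-resistant, paclitaxel-resistant and treatment-naïve spheroids and 27.5, 10.6 and 1.63 in the attached cells. The median Fano factor of genes with a mean of at least 0.1 UMI was 1.61 to 1.97, and ABCB1 ranked 8 of 173 and 16 of 171 in the resistant spheroids and 5 of 176 and 11 of 172 in the resistant attached cells. The Fano factor tends to grow with the mean, and ABCB1 was more abundant than many of these genes. By the excess squared coefficient of variation, the variance minus the mean over the squared mean, ABCB1 ranked 16 and 30 in the doxorubicin- and paclitaxel-resistant spheroids and 18 and 27 in the attached cells. That measure was 4.10, 2.67 and 57.7 in doxorubicin-resistant, paclitaxel-resistant and treatment-naïve spheroids and 3.45, 2.05 and 3.83 in attached cells. By it the treatment-naïve cells were the most uneven in both cultures at 1000 UMIs. In attached cells this order turned at larger depth. The inverse of the measure, lower in more uneven cells, was 0.296 in doxorubicin-resistant and 0.328 in treatment-naïve attached cells at 2000 UMIs. Before thinning these values were 0.243 and 0.249. A Poisson count with the doxorubicin-resistant spheroid mean of 6.01 UMIs at 1000 UMIs would leave 0.244% of cells without a UMI. At that depth 31.9% had none. At full depth a single doxorubicin-resistant attached cell reached 1078 ABCB1 UMIs, and ABCB1 took up to 27.1% of the UMIs of a cell there.

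At 1000 UMIs ABCG2 seldom reached high numbers in a cell. It was found in 29.1% (27.3 to 30.9) of doxorubicin-resistant, 29.3% (27.4 to 31.3) of paclitaxel-resistant and 12.4% (11.2 to 13.8) of treatment-naïve spheroid cells, and in 61.5% (60.3 to 62.6), 51.1% (49.9 to 52.4) and 11.7% (10.8 to 12.6) of the attached cells at 1000 UMIs. Before thinning these shares were 40.8%, 34.7% and 19.0% in spheroids and 88.2%, 82.3% and 30.9% in attached cells. Its Fano factor was 1.40, 1.36 and 1.60 in spheroids and 1.82, 1.66 and 1.23 in attached cells, which ranked it between 82 and 132 of 171 to 178 genes. Its excess squared coefficient of variation was 0.969, 0.879 and 3.56 in spheroids and 0.623, 0.724 and 1.71 in attached cells, below that of ABCB1 in every population, with ranks of 38 to 86. The share of cells without ABCG2 was 70.9%, 70.7% and 87.6% in spheroids, where a Poisson count of the same mean would leave 65.9%, 66.6% and 84.6%. In attached cells it was 38.5%, 48.9% and 88.3%, where it would leave 26.8%, 40.3% and 87.3%. More than 5 ABCG2 UMIs were seen at 1000 UMIs in 2.22% of doxorubicin-resistant and 0.763% of paclitaxel-resistant attached cells and in 1 cell of each other population. Before thinning these shares were 36.7% and 22.0% in the resistant attached cells and 6.94% and 4.67% in the resistant spheroids. In treatment-naïve cells they were 0.735% (attached) and 2.02% (spheroids).

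**Figure D2:**
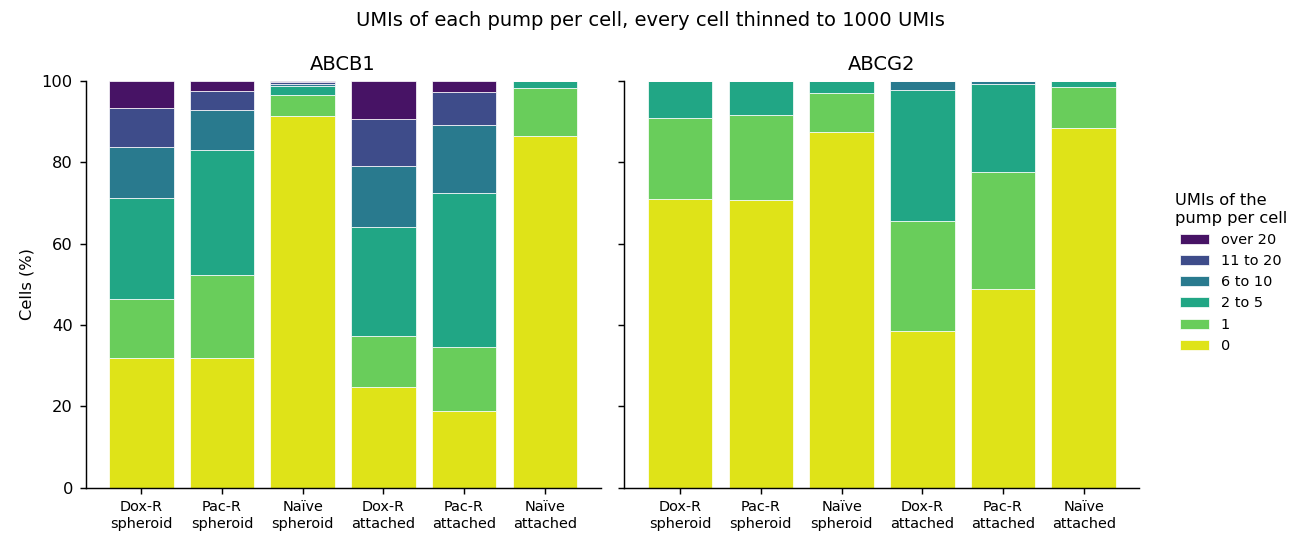
Share of cells (%) by the number of ABCB1 (left) or ABCG2 (right) UMIs, every cell thinned to 1000 UMIs (Dox-R and Pac-R mean doxorubicin- and paclitaxel-resistant). ABCB1 spans from 0 to over 20 UMIs in the resistant populations, with 31.9% of doxorubicin-resistant spheroid cells at 0 and 6.65% above 20, while ABCG2 seldom passes 5.

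Spheroid barcodes differed widely in depth, and the pumps differed with it. Each population was split by UMIs per cell into 4 classes of equal size. In the shallowest class of treatment-naïve spheroid cells (median 114 UMIs) ABCB1 stood at 1740 CPM (1522 to 1981), and in the following classes at 846, 277 and 211 CPM. The 1920 treatment-naïve spheroid barcodes below 1000 UMIs held 4.53% of the population's UMIs but 22.1% of its ABCB1 UMIs and 4.63% of its ABCG2 UMIs. In their shallowest class the resistant spheroids had less ABCB1 than in their deepest class, 5008 against 6450 CPM with doxorubicin and 2568 against 3798 CPM with paclitaxel. The number of ABCB1 UMIs per ABCG2 UMI in treatment-naïve spheroids was 10.4, 4.47, 1.93 and 1.05 from the shallowest class to the deepest. Over all cells it was 12.9 in doxorubicin-resistant and 7.55 in paclitaxel-resistant spheroids, and in their shallowest classes it was 21.1 and 8.58. The ratio of the shallowest treatment-naïve class, which rests on 22 ABCG2 UMIs, lay between those of the resistant populations on the same cartridge. RNA from the resistant cells on that cartridge was not tested as a source. Treatment-naïve attached cells showed the same order on a smaller scale, with 222, 160, 136 and 121 CPM of ABCB1, while their ABCG2 stayed at 123 to 132 CPM. Restricting the spheroids to cells of at least 1000 UMIs gave ABCB1 folds over treatment-naïve cells of 26.8 with doxorubicin and 15.1 with paclitaxel.

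**Figure D3:**
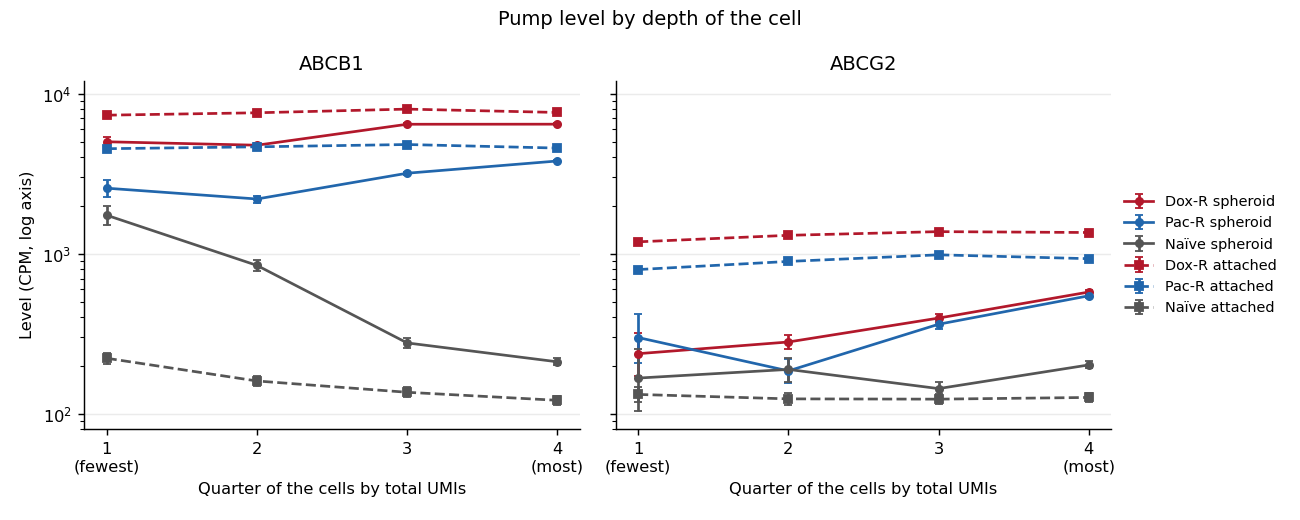
Level of ABCB1 (left) and ABCG2 (right) in CPM on a log axis in 4 equal classes of each population's cells, from fewest to most UMIs per cell, with 95% counting intervals (Dox-R and Pac-R mean doxorubicin- and paclitaxel-resistant). ABCB1 of treatment-naïve spheroids was at 1740 CPM in the shallowest class and 211 CPM in the deepest.

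The pumps were found in the same cell slightly more often than independent detection would give. At 1000 UMIs, 21.03% (19.5 to 22.7) of doxorubicin-resistant, 21.9% (20.2 to 23.7) of paclitaxel-resistant and 1.80% (1.31 to 2.41) of treatment-naïve spheroid cells had both, where the product of the single shares was 19.8%, 19.98% and 1.06%. In attached cells 47.0% (45.8 to 48.2), 42.1% (40.8 to 43.3) and 1.89% (1.54 to 2.29) had both, where the product was 46.3%, 41.5% and 1.58%. The observed share was thus 1.06, 1.10 and 1.71 times the product in spheroids and 1.02, 1.01 and 1.19 times in attached cells. In the attached populations and in doxorubicin-resistant spheroids the product lay inside the counting interval of the observed share. That interval cannot measure a departure from independence, because the product comes from the same cells. ABCG2 was seen in 62.4% (61.1 to 63.7) of doxorubicin-resistant attached cells with ABCB1, against 58.6% (56.2 to 60.9) without it. In doxorubicin-resistant spheroids these shares were 30.9% (28.7 to 33.1) and 25.2% (22.3 to 28.4). Such intervals overlapped in paclitaxel-resistant and treatment-naïve attached cells. The odds ratios were 1.32, 1.56 and 2.05 in spheroids and 1.17, 1.17 and 1.27 in attached cells. Averaged over all possible thinnings they were 1.32, 1.53 and 2.05, and 1.17, 1.11 and 1.08, so the value of treatment-naïve attached cells owed part of its size to the single draw, and it was 0.996 at 2000 UMIs.

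The odds ratio of the pumps was also set against those of the other panel genes. Ranked by its odds ratio with ABCB1, ABCG2 came 27th of 165 genes in doxorubicin-resistant, 24th of 162 in paclitaxel-resistant and 2nd of 171 in treatment-naïve spheroids, and 9th of 161, 21st of 164 and 10th of 157 in attached cells. The median gene had an odds ratio with ABCB1 of 0.992 to 1.19. Cells without either pump at this depth made up 23.8% (22.2 to 25.5), 24.4% (22.6 to 26.3) and 80.9% (79.3 to 82.4) of the spheroid populations and 10.2% (9.54 to 10.97), 9.86% (9.11 to 10.6) and 76.7% (75.5 to 77.8) of the attached ones. At full depth 138 of 7032 doxorubicin-resistant and 97 of 5896 paclitaxel-resistant attached cells had no UMI of either pump.

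The share of cells with ABCG2 was higher in the resistant cells with most ABCB1 than in those with none. In doxorubicin-resistant spheroids ABCG2 was seen in 37.3% (32.6 to 42.1) of the 416 cells with more than 10 ABCB1 UMIs, against 25.2% (22.3 to 28.4) of the 816 cells with none. In paclitaxel-resistant spheroids it was seen in 39.0% (31.2 to 47.1) of 154 such cells, against 23.3% (20.1 to 26.6) of 688. In attached cells the shares were 69.0% (66.6 to 71.4) against 58.6% (56.2 to 60.9) with doxorubicin and 53.6% (49.6 to 57.5) against 48.0% (45.02 to 50.96) with paclitaxel. The intervals of the highest and lowest ABCB1 classes were apart in all of these but the paclitaxel-resistant attached cells. Over cells, Pearson's r between the log2 values of the pumps was 0.0996, 0.121 and 0.109 in doxorubicin-resistant, paclitaxel-resistant and treatment-naïve spheroids (n = 2558, 2164 and 2442 cells), and 0.096, 0.039 and 0.032 in attached cells (n = 7032, 5895 and 5305 cells). All are weak, and the cells of a population share 1 library and a fixed total.

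**Figure D4:**
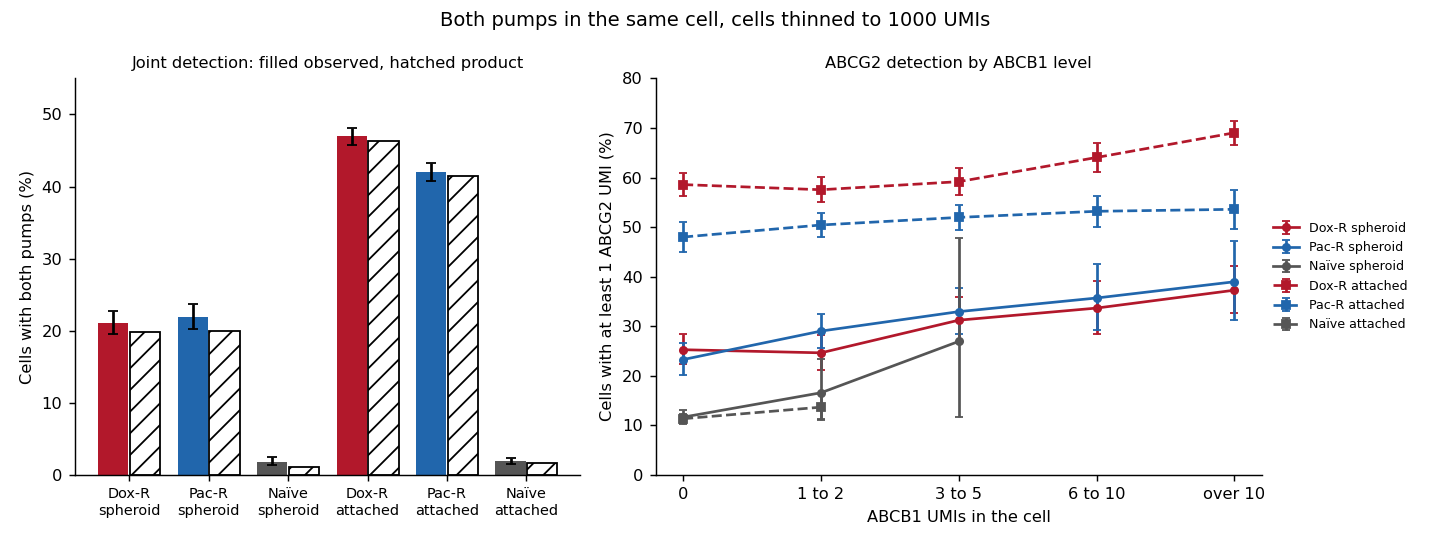
Left, share of cells (%) with both pumps (filled, with 95% counting interval) beside the product of the single shares (hatched). Right, share of cells (%) with at least 1 ABCG2 UMI by the ABCB1 UMIs of the cell, for classes of at least 20 cells, with 95% counting intervals (Dox-R and Pac-R mean doxorubicin- and paclitaxel-resistant). Observed and product shares lie close together, at 21.03% and 19.8% in doxorubicin-resistant spheroids, and ABCG2 was seen in 69.0% of doxorubicin-resistant attached cells with over 10 ABCB1 UMIs and in 58.6% of those with none.

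Few treatment-naïve cells carried many ABCB1 molecules, and in spheroids most of those resembled the resistant cells. Before thinning, 89 of 4362 treatment-naïve spheroid cells and 34 of 5305 treatment-naïve attached cells had more than 5 ABCB1 UMIs, and for ABCG2 these numbers were 88 and 39. The cells with more than 5 ABCB1 UMIs were also deeper, with a median of 3006 UMIs against 1476 in the other treatment-naïve spheroid cells and 4864 against 3707 in attached ones. More than 5 UMIs of both pumps were seen in 6 treatment-naïve spheroid cells and in 0 attached ones. Each cell of at least 1000 UMIs was then matched to the mean profile of the 3 populations on its cartridge over all genes but the pumps. Of 2442 treatment-naïve spheroid cells, 454 (18.6%) matched a resistant profile best, 266 of them the doxorubicin- and 188 the paclitaxel-resistant one. These 454 cells held 55 of the 76 such cells with more than 5 ABCB1 UMIs before thinning and 67.9% of the ABCB1 UMIs of all 2442. Their mean ABCB1 was 1.26 and 1.17 UMIs per 1000 in those matching the doxorubicin- and the paclitaxel-resistant profile, against 0.092 in the 1988 cells that matched their own population, and their mean ABCG2 was 0.436 and 0.367, against 0.113. In attached cells 188 of 5305 treatment-naïve cells (3.54%) matched a resistant profile, with mean ABCB1 of 0.265 and 0.220 against 0.162, and held 4 of 34 high cells.

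Which of these spheroid cells were cells of the treatment-naïve culture that resemble resistant ones, and which carried the wrong tag or RNA of more than 1 cell, cannot be told apart. The matched class was also seen in the other direction, since 155 of 2558 doxorubicin-resistant and 201 of 2164 paclitaxel-resistant spheroid cells matched the treatment-naïve profile best, and their mean ABCB1 was 4.93 and 1.87 UMIs per 1000. In the cells that matched their own population, the ABCG2 folds over treatment-naïve spheroids were 3.86 with doxorubicin and 3.35 with paclitaxel, beside the ABCB1 folds of 70.6 and 37.6. Without the high treatment-naïve cells that matched a resistant profile, a step chosen after seeing the data that selects on ABCB1 itself, the ABCB1 folds were 41.3 and 23.1. The odds ratio of joint detection in treatment-naïve spheroids was 1.58 in the cells that matched their own population.

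Genes that varied with ABCB1 from cell to cell were few in attached cells and more numerous in spheroids. A gene was counted when Pearson's r of log2(thinned UMIs + 1) over cells was at least 0.1 in size, among genes with a UMI in at least 5% of cells. In spheroids 8 of 183 genes (4.37%) had an r of 0.1 or more with ABCB1 in doxorubicin-resistant, 40 of 182 (22.0%) in paclitaxel-resistant and 9 of 189 (4.76%) in treatment-naïve cells. In attached cells no gene did (0% of 187, 185 and 188). At or below -0.1 were 2, 11 and 5 genes in spheroids and 4, 3 and 0 in attached cells. These r values are weak, which in sparse counts is no finding, and they are given as a description over cells that share 1 library and a fixed total.

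In paclitaxel-resistant spheroids the genes high with ABCB1 included the cytokinesis scaffold gene ANLN (r = 0.184), the sphingosine kinase gene SPHK1 (0.171), the poliovirus receptor gene PVR (0.167) and the luminal keratin gene KRT8 (0.163). At the other end were the galectin gene LGALS3 (-0.159), the fibrillar collagen gene COL3A1 (-0.144), the complement protease gene C1S (-0.137) and the fibronectin gene FN1 (-0.124). In doxorubicin-resistant spheroids the integrin gene ITGB1 (0.166), SPHK1 (0.152) and the urokinase gene PLAU (0.142) stood highest, and GAPDH (-0.128) and the cytokine gene IL18 (-0.103) lowest. In treatment-naïve spheroids the highest were the keratin gene KRT18 (0.176), the vimentin gene VIM (0.175) and the galectin gene LGALS1 (0.163), and the lowest the cyclooxygenase gene PTGS2 (-0.163). There 14 genes were past 0.1 in size in all, and 0 were when the cells that matched another population were left out. The strongest value in attached cells was that of the aldo-keto reductase gene AKR1C1 with ABCB1 in doxorubicin-resistant cells (-0.205), which had -0.094 in paclitaxel-resistant and -0.040 in treatment-naïve attached cells and 0.112 in paclitaxel-resistant spheroids. GAPDH was the gene past 0.1 most often, at -0.128 and -0.114 in doxorubicin- and paclitaxel-resistant spheroids and -0.114 and -0.115 in the attached cells, against 0.031 and 0.000 in the treatment-naïve populations. GAPDH is among the 5 most abundant genes of both cultures and takes a large part of the fixed total, whose bearing on these values was not tested.

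At 1000 UMIs more genes passed 0.1 in size with ABCG2 than with ABCB1, 144 against 82 summed over the 6 populations, but at 500 UMIs the numbers were 42 and 55. An r of 0.1 or more with ABCG2 was reached by 25 of 183 genes (13.7%) in doxorubicin-resistant, 33 of 182 (18.1%) in paclitaxel-resistant and 37 of 189 (19.6%) in treatment-naïve spheroids, and by 5 of 187 (2.67%), 4 of 185 (2.16%) and 6 of 188 (3.19%) in attached cells. The nucleoside diphosphate kinase gene NME1, the caveolin gene CAV1 and the glutathione transferase gene GSTP1 passed 0.1 in 5 of the 6 populations each. NME1 had r values of 0.125, 0.241 and 0.188 in doxorubicin-resistant, paclitaxel-resistant and treatment-naïve spheroids and 0.037, 0.111 and 0.113 in attached cells. GSTP1, whose product conjugates glutathione to electrophilic drugs, had 0.101, 0.126 and 0.107 in spheroids and 0.051, 0.126 and 0.116 in attached cells. CAV1 had 0.134, 0.108 and 0.142 in spheroids and 0.106, 0.017 and 0.127 in attached cells. These genes were positive in all 6 populations.

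Epithelial keratins went with ABCG2 and matrix genes against it, most clearly in spheroids. KRT8 had r values of 0.132, 0.130 and 0.121 in doxorubicin-resistant, paclitaxel-resistant and treatment-naïve spheroids, and KRT18 had 0.136, 0.194 and 0.148. PLAU reached 0.169 in doxorubicin-resistant spheroids and the metalloprotease gene PITRM1 0.179 in paclitaxel-resistant ones. FN1 was negative in all 6 populations, at -0.225, -0.241 and -0.154 in spheroids and -0.023, -0.173 and -0.084 in attached cells. COL3A1 had -0.078, -0.201 and -0.176 in spheroids and S100A9, which encodes a calprotectin subunit, -0.157, -0.148 and -0.142. The surface glycoprotein gene CD24 was among the highest in resistant attached cells, at 0.124 with doxorubicin and 0.120 with paclitaxel, and had -0.036 and -0.032 in the resistant spheroids, a difference that was not tested. In treatment-naïve spheroids 45 genes were past 0.1 in size in all cells of at least 1000 UMIs, and 13 in those that matched their own population.

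**Figure D5:**
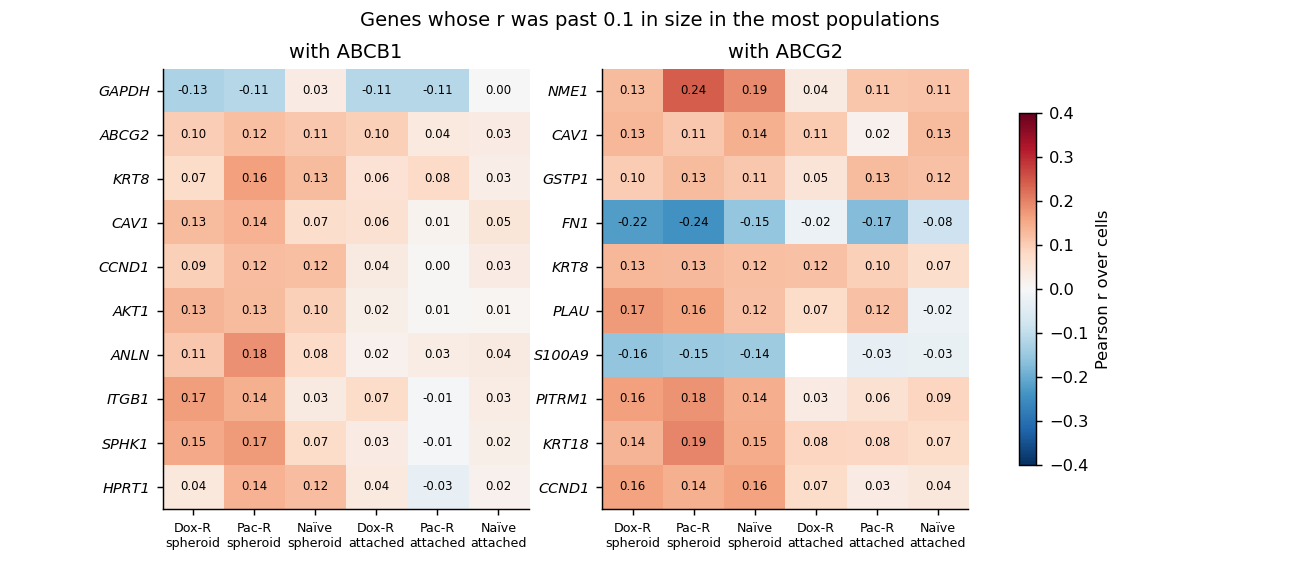
Pearson's r over cells of log2(UMIs + 1) at 1000 UMIs per cell between ABCB1 (left) or ABCG2 (right) and the 10 genes past 0.1 in size in the most populations (Dox-R and Pac-R mean doxorubicin- and paclitaxel-resistant), with an empty cell for a gene under the minimum share of cells. All values lie between -0.241 and 0.241.

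By gene lists, proliferation and drug metabolism genes leaned towards both pumps in spheroids. Over all genes and the 3 spheroid populations, 57 of 554 values were at 0.1 or more with ABCB1 and 95 of 554 with ABCG2, and in attached cells 0 and 15 of 560. At or below -0.1 were 18 and 26 of the spheroid values and 7 and 8 of the attached ones. Of 33 values of G1/S and replication genes (11 measured genes in each of 3 spheroid populations), 6 were at 0.1 or more with ABCB1 and 16 with ABCG2. Of 48 values of the 16 measured G2/M and mitosis genes, 9 and 19 were at 0.1 or more, led by ANLN and MELK. With ABCB1, paclitaxel-resistant spheroids gave 5 of those 6 and 8 of those 9 values, and 40 of the 57 over all genes. With ABCG2 the values came from all 3 spheroid populations, and treatment-naïve spheroids gave 5 of those 16 and 9 of those 19. In that population, as given above, fewer genes passed 0.1 with ABCG2 among cells that matched their own population. The lists were not counted again in those cells. In attached cells no value of either list was at 0.1 or more and 1 was at -0.1 or less, that of the securin gene PTTG1 with ABCG2 in doxorubicin-resistant cells, and the list medians ran from -0.041 to 0.059. The medians in spheroids ran from 0.037 to 0.118, where those of all genes were 0.007 to 0.036. The lists of replication and of drug metabolism share TYMS and RRM2. A list is described here by its counts beside those of all genes, and nothing particular to it follows from them.

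Drug metabolism genes, among them GSTP1, the thymidylate synthase gene TYMS and the ribonucleotide reductase gene RRM2, reached 0.1 in 3 of 15 spheroid values with ABCB1 and 8 of 15 with ABCG2, and in 0 and 2 of 16 attached values. Paclitaxel-resistant spheroids gave 2 of the 3 values with ABCB1. The medians of drug metabolism genes in spheroids were 0.043 to 0.099 with ABCB1 and 0.092 to 0.120 with ABCG2. Mesenchymal and matrix genes split, with 7 values at or above 0.1 and 6 at or below -0.1 with ABCB1 in spheroids, and 11 and 9 with ABCG2. ITGB1 was towards the upper end and FN1 and COL3A1 at the lower end in paclitaxel-resistant spheroids. Luminal genes, led by KRT8 and KRT18, reached 0.1 in 5 of 19 spheroid values with ABCB1 and 6 of 19 with ABCG2, and basal genes in 0 and 2 of 23. Inflammatory genes had 1 value at or above 0.1 and 4 at or below -0.1 with ABCB1, and 3 and 4 with ABCG2, of 29 spheroid values, and stress and hypoxia genes 0 above and 2 below, and 0 and 1, of 12. Of the 4 listed drug efflux genes the files hold ABCB1 and ABCG2 themselves.

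Across the 6 populations the levels of the pumps ran in parallel, with r = 0.927 over log2(CPM + 1), which placed ABCG2 13th of 276 genes for ABCB1 and ABCB1 17th for ABCG2. The gene most like ABCB1 was NCAM1, a neural adhesion gene, at 162, 132 and 10.6 CPM in doxorubicin-resistant, paclitaxel-resistant and treatment-naïve spheroids and 227, 194 and 6.07 CPM in attached cells (r = 0.995), followed by APC, ESR1, HPRT1 and MYB (r of 0.952 or more). The gene most like ABCG2 was the replication helicase gene MCM6, at 1489, 1247 and 715 CPM in spheroids and 2704, 1932 and 430 CPM in attached cells (r = 0.989), followed by TYMS, KRT8, ESR1 and CDC7 (r of 0.957 or more). These r values describe 6 points that share 2 cartridges. ESR1, named for both pumps, stood at only 0.619 to 5.23 CPM. It was under the minimum share of 5% of cells in all 6 populations. Its r values therefore rest on few UMIs, and no r over single cells was computed for it. Over the single cells of a population, KRT8 was at 0.1 or more with ABCG2 in 4 of the 6 populations, TYMS in 2 and MCM6 in 1. MCM6 had an r with ABCG2 of 0.071, 0.118 and 0.048 in spheroids and 0.094, 0.099 and 0.022 in attached cells.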

How the data were processed

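Single-cell libraries of 2 SUM159 samples (attached and spheroid) had been made on the BD Rhapsody platform with a targeted panel of breast cancer genes, each pooling 3 tagged populations. The authors deposited 1 matrix per population of UMI counts, which their methods describe as molecules adjusted by a method named RSEC and joined to putative cells on an analysis platform. Per the submitters' processing notes the build is hg38. The methods describe a later filter on genes and cells with low counts, which the deposited attached matrices precede, since they hold all cells collected. Its thresholds, the aligner and the handling of cells with more than 1 tag are not given in the sources used here. All deposited barcodes were used, including 18233 attached ones, more than the about 15000 cells pooled. No doublet caller was run, and cells of the highest UMI counts were left out as an alternative.

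UMIs were summed per population and scaled to CPM with exact Poisson intervals. Folds are CPM ratios with exact conditional binomial (Clopper-Pearson) intervals, and shares of cells have exact Clopper-Pearson intervals, all at 95% and for counting error only. The size rule was a fold of 2, among genes with 50 or more UMIs in whichever population was higher. Cells were thinned without replacement to 1000 UMIs with a fixed seed, and alternatives used 500 or 2000. Dispersion was ranked among genes of a mean of at least 0.1 UMI per 1000. Named genes are the pumps, for each pump and population up to 5 genes at each end of r past 0.1, up to 10 per pump past it in most populations, 2 at each end of a described list, and the 5 most like each pump over the 6 populations. The 9 gene lists are drug efflux, drug metabolism, G2/M and mitosis, basal, luminal, inflammatory, G1/S and replication, stress and hypoxia, and mesenchymal and matrix. Members and lists were chosen with earlier results of these data known. Scripts were tested on simulated data. A gene that the naming rule includes is not reported here. Of the RefSeq windows of each pump, the one richest in G and C that overlapped no first bases after another annotated start was shown. Python 3.11.15, numpy 2.4.6, scipy 1.17.1, pandas 2.3.3 and matplotlib 3.10.9 were used.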

Additional observations from a re-analysis of the deposited data

Results flagged for a closer look

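The spheroid-to-attached ratio of both pumps ran in opposite directions in the resistant and the treatment-naïve populations. For ABCB1 it was 0.808 in doxorubicin-resistant, 0.747 in paclitaxel-resistant and 1.96 in treatment-naïve cells, and for ABCG2 it was 0.361, 0.5001 and 1.47. The treatment-naïve direction was not kept in every setting, with 0.626 for ABCB1 in cells matching their own population and 0.778 for ABCG2 in unscaled totals. Each ratio compares 1 population with 1 other on another cartridge, so the difference between the states was not tested. In the same treatment-naïve spheroids 18.6% of the cells of at least 1000 UMIs matched a resistant population best, against 3.54% of the treatment-naïve attached cells, and their part in the opposite directions was not tested.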

How the results depend on the processing

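Of 114 alternative values for the folds over treatment-naïve cells, the odds ratios and the summed numbers of correlated genes, 77 stayed within the counting interval or within 1.5 times, and 37 moved. Attached ABCB1 folds were 72.3 (doxorubicin) and 34.7 (paclitaxel) in unscaled totals, 46.6 and 28.3 as averages of single-cell CPM values, and 34.5 (paclitaxel) without the 5 most abundant genes. Attached ABCG2 folds were 14.5 and 7.98 in unscaled totals, 7.92 (paclitaxel) without the 5 most abundant genes, and 11.01 (doxorubicin) in cells matching their own population. Spheroid ABCB1 folds were 20.2 and 9.06 in unscaled totals, 25.7 and 15.6 without the 5 most abundant genes, 26.8 and 15.1 in cells of at least 1000 UMIs, 20.8 and 11.6 without the deepest 1% of cells, 6.77 and 3.51 as means over cells, 70.6 and 37.6 in own-matching cells, and 41.3 and 23.1 without high treatment-naïve cells matching a resistant profile, which was chosen after seeing the data. Spheroid ABCG2 folds were 2.41 and 1.85 in unscaled totals, 3.07 and 3.18 without the 5 most abundant genes, 2.04 and 1.96 as means over cells, and 3.86 and 3.35 in own-matching cells. The doxorubicin-to-paclitaxel ratio of ABCG2 in spheroids was 0.965 without the 5 most abundant genes, and the spheroid-to-attached ratio in treatment-naïve cells was 0.626 for ABCB1 in own-matching cells and 0.778 for ABCG2 in unscaled totals, each on the other side of 1. At 2 or more UMIs of each pump the odds ratio was 4.52 in treatment-naïve spheroids and 2.14 in treatment-naïve attached cells. The summed number of genes past 0.1 in size was 82 with ABCB1, with 55 at 500 UMIs and 157 without thinning, and with ABCG2 it was 144, with 42 at 500, 238 at 2000 UMIs and 361 without thinning. With no minimum of UMIs the genes past 2-fold rose in number by over 1.5 times in 5 of the 9 comparisons, to 144 (against 88) and 132 (against 76) for doxorubicin- and paclitaxel-resistant over treatment-naïve spheroids, 89 (against 44) and 106 (against 62) for doxorubicin over paclitaxel in spheroids and attached cells, and 155 (against 99) for spheroid over attached paclitaxel-resistant cells.

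Depth limits every share of cells: a cell without a UMI at 1000 UMIs may still express the pump, and ABCG2 in particular averaged 0.136 to 1.32 UMIs per 1000. Panel counts of different genes rest on different primers, so the level of ABCB1 is not read against that of ABCG2. The ratio of their UMIs is used only to compare groups of cells. Cells of 1 population share a culture, a tag and a library and are not replicates. No paired analysis was possible because no group has replicates.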

Other observations

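Apart from the pumps themselves, the genes with the highest odds ratio of joint detection with ABCB1 at 1000 UMIs were the hyaluronan receptor gene CD44 in doxorubicin-resistant (1.74) and paclitaxel-resistant spheroids (2.31), the biliverdin reductase gene BLVRA in treatment-naïve spheroids (2.33), the immediate early gene JUN in doxorubicin-resistant attached cells (1.34), the receptor kinase gene ROS1 in paclitaxel-resistant attached cells (1.46) and CXXC5 in treatment-naïve attached cells (1.54). With ABCG2 the highest were PLAU (3.27), PITRM1 (2.03) and CAV1 (3.02) in doxorubicin-resistant, paclitaxel-resistant and treatment-naïve spheroids, and CD24 (1.52), CCNE2 (1.43) and CAV1 (2.75) in the attached populations. Each is the highest of 157 to 171 genes in 1 population and was not tested. CD44 had a UMI in 93.8% of the thinned cells of both resistant spheroid populations, so its odds ratios rest on few cells without it.

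The pumps were not the most uneven genes of the panel. By Fano factor at 1000 UMIs the chemokine gene CCL5 stood first in all 4 resistant populations, at 90.5 and 137 in doxorubicin- and paclitaxel-resistant spheroids and 101.02 and 68.1 in the attached cells, each above ABCB1.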
